A study of Mus musculus with 4 samples.

Results

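The genes that write, copy and remove DNA methylation were followed in the fetal mouse testis, as 9 genes chosen by name: the maintenance methyltransferase gene Dnmt1 and its partner Uhrf1, the de novo methyltransferase genes Dnmt3a and Dnmt3b with their cofactor Dnmt3l, the dioxygenase genes Tet1, Tet2 and Tet3, and the DNA glycosylase gene Tdg. Probes were assigned through the RefSeq accession that the scanner files give for each probe, and 7 of the 9 genes matched 12 of 41174 probes. Tet1 and Tet3 matched none and were not analysed here. The samples were whole gonads of wild type male embryos of the mouse line MCH, collected on 4 successive days of gestation, from embryonic day 12.5 (E12.5) through E13.5 and E14.5 to E15.5, so that all groups shared sex, genotype and line and no treatment was given. Each stage had 2 one-colour Agilent arrays, described by the submitters as duplicates of a biological kind. How many embryos went into an RNA sample is not given in the sources used here. A whole gonad mixes germ cells with Sertoli, Leydig, interstitial, endothelial and blood cells, and from such tissue fewer cells of a type and less RNA per cell cannot be told apart.

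Methylation at CpG sites is copied onto the new strand after replication by DNMT1, which UHRF1 recruits to half-methylated DNA. It is laid down on unmethylated DNA by DNMT3A and DNMT3B, and DNMT3L, which has no catalytic activity of its own, binds these enzymes and raises their activity. TET enzymes oxidise the methyl group, and TDG excises further oxidised forms so that base excision repair restores cytosine. In the mouse, primordial germ cells lose most of their methylation around the time they settle in the gonad, and male germ cells regain it before birth, a step that requires Dnmt3a and Dnmt3l.

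The promoters of the gene that moved most, Dnmt3l, and of its partner Dnmt3a are shown because the genes differ in CpG content and each has several annotated starts. RefSeq (assembly GRCm38.p6) places Dnmt3l at chr10:78042287-78063622 and Dnmt3a at chr12:3801559-3914443, both on the plus strand. The lines give the 250 bases before an annotated start, 5′ to 3′, in lower case with CpG dinucleotides in capitals. For Dnmt3l the windows are chr10:78042037-78042286, chr10:78049592-78049841 and chr10:78055085-78055334, and for Dnmt3a the first and the third start are shown, at chr12:3806730-3806979 and chr12:3891494-3891743.
Dnmt3l start 1: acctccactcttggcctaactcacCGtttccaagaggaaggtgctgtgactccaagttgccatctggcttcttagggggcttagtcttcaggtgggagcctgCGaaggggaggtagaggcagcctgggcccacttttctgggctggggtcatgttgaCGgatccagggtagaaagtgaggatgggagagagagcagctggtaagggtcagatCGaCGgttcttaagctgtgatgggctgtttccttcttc
Dnmt3l start 2: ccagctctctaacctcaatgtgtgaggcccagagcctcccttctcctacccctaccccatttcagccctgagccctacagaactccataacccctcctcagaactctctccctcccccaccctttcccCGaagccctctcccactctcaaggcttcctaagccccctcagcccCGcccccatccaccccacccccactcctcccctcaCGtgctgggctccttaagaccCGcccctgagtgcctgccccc
Dnmt3l start 3: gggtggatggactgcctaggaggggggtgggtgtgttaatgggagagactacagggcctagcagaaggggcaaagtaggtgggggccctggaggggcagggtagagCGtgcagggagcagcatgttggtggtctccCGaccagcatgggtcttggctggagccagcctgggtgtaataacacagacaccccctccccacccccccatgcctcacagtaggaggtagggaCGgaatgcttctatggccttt
Dnmt3a start 1: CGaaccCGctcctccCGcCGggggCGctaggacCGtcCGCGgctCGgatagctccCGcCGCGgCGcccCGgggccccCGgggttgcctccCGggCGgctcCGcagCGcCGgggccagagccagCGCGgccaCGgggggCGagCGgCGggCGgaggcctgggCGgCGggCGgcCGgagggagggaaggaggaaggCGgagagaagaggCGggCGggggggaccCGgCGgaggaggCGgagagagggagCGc
Dnmt3a start 3: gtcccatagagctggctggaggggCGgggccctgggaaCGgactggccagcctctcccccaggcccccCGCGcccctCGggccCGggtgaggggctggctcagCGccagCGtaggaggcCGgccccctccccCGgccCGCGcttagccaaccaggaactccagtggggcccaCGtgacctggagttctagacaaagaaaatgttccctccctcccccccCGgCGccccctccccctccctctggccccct

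The Dnmt3l windows held 5, 4 and 3 CpG, against a median of 6 over the same window of 32851 RefSeq promoters (10th percentile 1, 90th percentile 25). The Dnmt3a windows held 38 at the first start, 40 at the second and 15 at the third, which lies 84764 bases downstream. The second and the third Dnmt3l start lie 7555 and 13048 bases downstream of the first, and the mouse gene is known to use different promoters in male germ cells and in oocytes. Dnmt3b had 21 CpG in its window, Tet2 51, Tdg 19, Tet1 15 and Tet3 17. The 3 annotated starts of Dnmt1 had 2, 7 and 26 CpG, and the 2 starts of Uhrf1 had 10 and 30. Of 4 short motifs searched on both strands, the GC box GGGCGG occurred 2 times in the second Dnmt3l window, at -78 and -22, and in no other Dnmt3l window, whereas the first Dnmt3a window held 5. That motif is present in 32.7% of promoters. CCAAT (33.8% of promoters), TATAAA (12.4%) and the E2F core TTCCCGC (3.8%) were found in none of the Dnmt3l or Dnmt3a windows, and the E2F core was found once among all members, at -48 of the first start of Uhrf1. These matches describe letters only, and probe positions within the transcripts are not in the files, so no probe can be tied to a start.

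Values are log2 of the processed spot signal minus the 75th percentile of that array, so 0 marks that percentile. Levels of different probes are not comparable, so comparisons are between stages. They are made for 1 probe, for the difference of 2 probes of a gene within arrays, or for the summed level of a list. A summed level is the log2 of the added linear signals of a list's genes, so the brightest genes weigh most. The arrays lay on 3 slides: slide 1 held array 1 and slide 2 array 2 of E12.5 and E13.5, and slide 3 held all E14.5 and E15.5 arrays in a scan session of its own. E13.5 against E12.5 is therefore available within each of 2 slides and E15.5 against E14.5 within 1, while in the comparison of E14.5 with E13.5, and in that of the first and last stage (called the span), slide and stage cannot be told apart. Between 24810 and 28724 of the 41174 probes were well above background per array, and of the 12 member probes 11 were so on all 8 arrays and the remaining Tet2 probe on 7. A gene was called at a limma adjusted p (Benjamini-Hochberg, over 21986 genes) under 0.05, with the probe of highest mean standing for the gene and other probes adjusted over 28188 probes. Of these 21986 only 13475 had a gene symbol. Each other target name in the scanner files counted as a gene of its own, also in ranks and shares of all genes. Leaving out an array of a stage compared leaves that stage with 1 array. It lowered the number of calls over all genes in each comparison, and so did normexp, an alternative background correction. A call lost in these fits therefore need not be particular to the gene or list named. The p-values speak only of how far duplicates lay apart, pooled over all stages, and ± is limma's standard error for 2 arrays per stage. Duplicates of E12.5 and of E13.5 lay on different slides, and those of E14.5 and of E15.5 on the same slide. The fit does not use the shared slides of E12.5 and E13.5.

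Dnmt3l, the cofactor of the de novo enzymes, rose between E12.5 and E13.5 and again to E14.5, with no call on the last day. Its level was -2.74 and -3.74 on the E12.5 arrays (processed signals 157 and 60.1), 2.0 and 1.72 at E13.5, 3.47 and 3.82 at E14.5, and 4.26 and 4.14 at E15.5. No array of a stage overlapped any array of an earlier stage, and the gap between E12.5 and E13.5 was the widest. Dnmt3l rose by log2 5.10 ± 0.34 from E12.5 to E13.5 (34.3-fold, adjusted p = 0.00155), by 4.74 within slide 1 and by 5.46 within slide 2. This rise was rank 9 of 21986 genes. It rose again by 1.79 ± 0.34 from E13.5 to E14.5 (adjusted p = 0.0264), across slides, a call lost under normexp background correction (adjusted p = 0.128), without the filter on dim probes (0.0597) and without any one of the E13.5, E14.5 or E15.5 arrays (0.0523 to 0.12). From E14.5 to E15.5, within slide 3, the difference of 0.55 ± 0.34 was not called (adjusted p = 0.783) although the arrays did not overlap. Over the whole span the rise was 7.44 ± 0.34 (174-fold, adjusted p = 9.94e-05), rank 6 of all genes.

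Dnmt3a, the catalytic partner of DNMT3L in germ cells, had 3 probes, of which only A_52_P169048 was called in any comparison. In the test of probe pairs below, only that probe was called apart from the brightest. The brightest, A_52_P76146, which stood for the gene, read 1.58 and 1.92 at E12.5, 2.65 and 2.45 at E13.5, 2.18 and 2.90 at E14.5, and 2.47 and 1.94 at E15.5. E12.5 was the lowest stage on this probe and the later stages overlapped. Its difference of 0.80 ± 0.31 between E12.5 and E13.5 (1.07 on slide 1, 0.53 on slide 2) was not called (adjusted p = 0.258), nor was that of 0.46 ± 0.31 over the span (adjusted p = 0.291).

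The second Dnmt3a probe, A_52_P169048, read 0.18 and 0.20 at E12.5, 1.59 and 1.33 at E13.5, 2.59 and 2.16 at E14.5, and 2.16 and 2.15 at E15.5. The arrays of E12.5, E13.5 and E14.5 did not overlap each other, while E14.5 and E15.5 did. It rose by 1.27 ± 0.21 between E12.5 and E13.5 (1.41 on slide 1, 1.13 on slide 2, adjusted p = 0.0307), by 0.91 ± 0.21 to E14.5 (adjusted p = 0.0404) and by 1.96 ± 0.21 over the span (3.9-fold, adjusted p = 0.00115). The first of these calls was lost under normexp background correction (adjusted p = 0.493), without the filter (0.078), in a fit of only the 4 arrays compared (0.0785), and without any one array of E12.5, E13.5 or E15.5 (0.0737 to 0.158). The second was lost under normexp (0.163), without the filter (0.0916), with scaling to the array median (0.0575), in the 4 arrays alone (0.129) and without any one array other than E14.5 array 2 (0.068 to 0.183). The span call held under each of the 18 alternatives run, with a highest adjusted p of 0.0258.

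The third Dnmt3a probe, A_52_P30497, stayed between -0.64 and -0.05 on all 8 arrays. Its values were -0.46 and -0.63 at E12.5 and -0.64 and -0.60 at E13.5, then -0.61 and -0.10 at E14.5 and -0.05 and -0.14 at E15.5. The E15.5 arrays lay above those of E12.5, by 0.45 ± 0.22 (adjusted p = 0.156), and no comparison of it was called.

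Dnmt3b, the other de novo enzyme, varied within about 0.9 log2 units. It read 0.25 and -0.07 at E12.5, -0.10 and -0.65 at E13.5, -0.28 and -0.25 at E14.5, and -0.27 and -0.37 at E15.5. Both E12.5 arrays lay above the arrays of each later stage, and the 3 later stages overlapped. The differences from E12.5 were -0.47 ± 0.24 at E13.5 (-0.35 and -0.58 within slides, adjusted p = 0.4) and -0.41 ± 0.24 at E15.5 (adjusted p = 0.215).

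Dnmt1, the maintenance enzyme, had its highest level at E12.5 and lower levels on every later array. It read 3.06 and 3.15 at E12.5, 2.24 and 2.30 at E13.5, 2.07 and 2.58 at E14.5, and 2.40 and 2.16 at E15.5. The E12.5 arrays lay above all others and the later stages overlapped each other. The difference at E13.5 was -0.83 ± 0.22, nearly equal within the slides (-0.81 and -0.85), with adjusted p = 0.111. Over the span Dnmt1 fell by 0.82 ± 0.22 on the log2 scale (1.77-fold lower, adjusted p = 0.0309). That call was lost under normexp background correction (adjusted p = 0.271), with quantile scaling (adjusted p = 0.0772), without the filter (0.0681), and without any one array of E12.5, E13.5 or E15.5 (0.0527 to 0.164).

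Uhrf1, which brings DNMT1 to replicated DNA, had its lowest stage mean at E13.5 on both of its probes. The probe that stood for the gene, A_52_P314705, read 3.11 and 2.94 at E12.5, 2.71 and 2.39 at E13.5, 3.08 and 3.51 at E14.5, and 3.23 and 3.1 at E15.5. Both E13.5 arrays lay below all others, and the other stages overlapped. The difference was -0.48 ± 0.22 from E12.5 to E13.5 (-0.41 and -0.55 within slides, adjusted p = 0.355) and 0.75 ± 0.22 from E13.5 to E14.5 (adjusted p = 0.0756), and over the span it was 0.14 ± 0.22. The second probe, A_51_P491742, had a difference of -0.34 ± 0.32 at the first step and 0.66 ± 0.32 at the second, neither called. Dnmt1 and Uhrf1 both had negative differences at E13.5, and at E15.5 Dnmt1 was below its E12.5 level and Uhrf1 was not called.

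**Figure D1:**
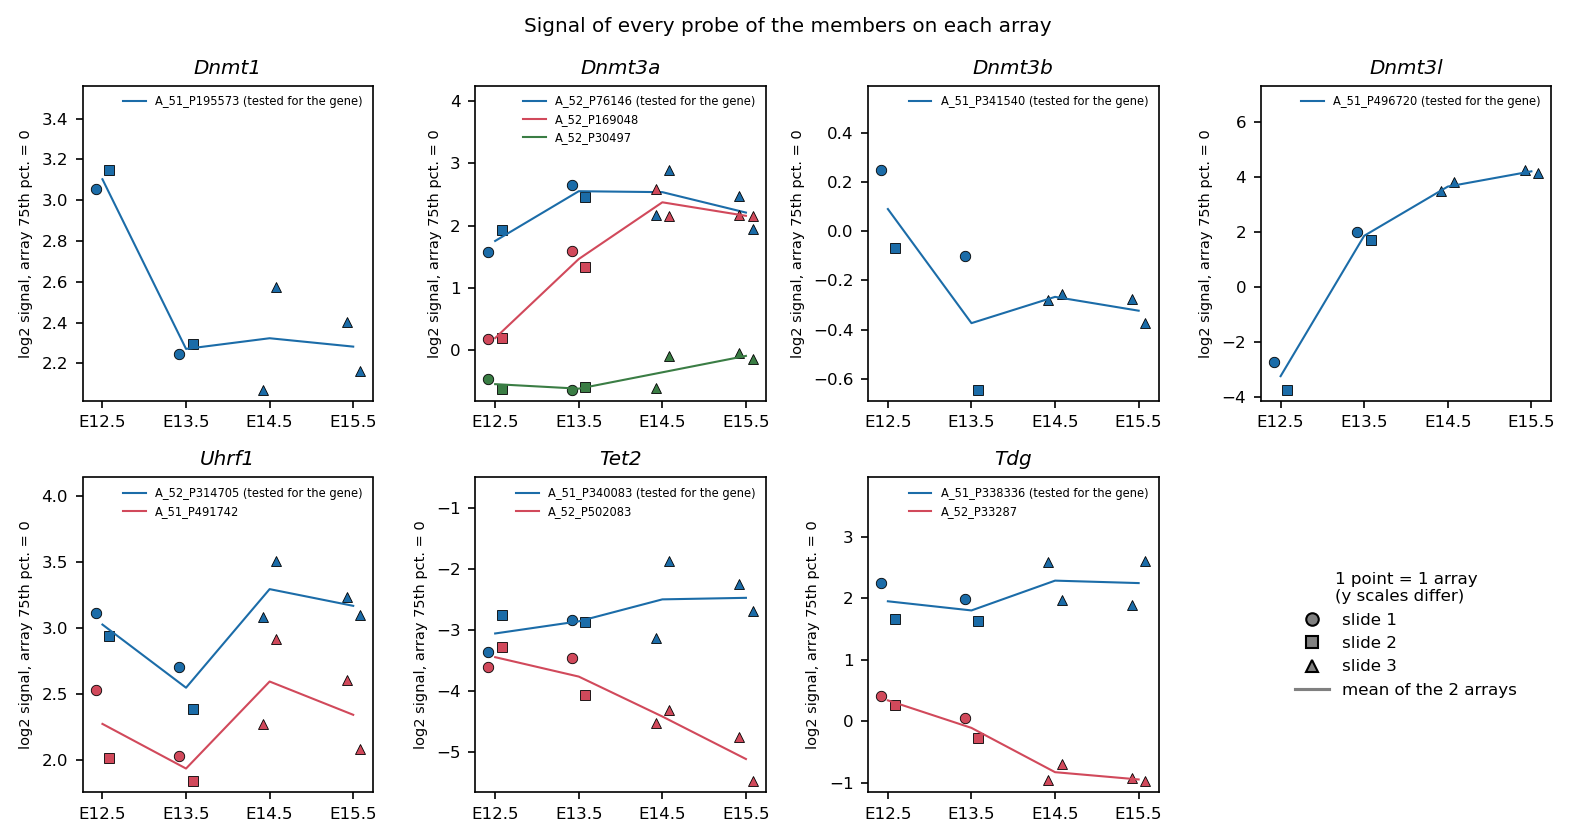
Signal of each probe on each array (log2, array 75th percentile set to 0) by stage, with 1 panel per gene, point shapes for slides and lines through the mean of 2 arrays; y scales differ. Dnmt3l climbs from -3.24 to 4.20 in stage means, Dnmt1 steps down after E12.5 to a mean of 2.27, and for Dnmt3a, Tet2 and Tdg a further probe parts from the brightest.

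Tet2, the one dioxygenase gene matched to probes, had low signals on both of them. Probe A_51_P340083 read -3.36 and -2.76 at E12.5, -2.85 and -2.88 at E13.5, -3.13 and -1.87 at E14.5, and -2.25 and -2.70 at E15.5. Neighbouring stages overlapped, the duplicates of E14.5 differed by 1.25, and no comparison was called (span 0.58 ± 0.43, adjusted p = 0.325). The other probe, A_52_P502083, read -3.61 and -3.29 at E12.5, -3.47 and -4.07 at E13.5, -4.53 and -4.31 at E14.5, and -4.75 and -5.49 at E15.5. E12.5 and E13.5 overlapped, and each later stage lay wholly below the one before. It fell by 1.67 ± 0.32 on the log2 scale over the span (3.18-fold lower, adjusted p = 0.00964), with no single step called, and was not well above background on 1 of its 8 arrays. Its processed signals were dim, at 86.0 and 82.2 at E12.5 and 66.2 and 33.1 at E15.5. The 75th percentile of the arrays was 1051 and 802 at E12.5 and 1784 and 1483 at E15.5, so part of the fall lies in the scaling. Leaving out array 2 of E12.5 (adjusted p = 0.0537) or array 2 of E15.5 (0.0586) ended the call.

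Tdg, the glycosylase of oxidised methylcytosine, likewise had probes that went apart, and these probes cite different RefSeq transcripts. The brighter, A_51_P338336, read 2.24 and 1.66 at E12.5, 1.98 and 1.62 at E13.5, 2.59 and 1.98 at E14.5, and 1.89 and 2.60 at E15.5. All neighbouring stages overlapped and no comparison was called (span 0.30 ± 0.36, adjusted p = 0.549). The other, A_52_P33287, read 0.41 and 0.27 at E12.5, 0.05 and -0.27 at E13.5, -0.96 and -0.69 at E14.5, and -0.91 and -0.97 at E15.5. E12.5, E13.5 and E14.5 did not overlap, and E14.5 overlapped E15.5. It fell by 1.28 ± 0.20 on the log2 scale over the span (2.44-fold lower, adjusted p = 0.00447). Its differences were -0.45 ± 0.20 at the first step (adjusted p = 0.358) and -0.72 ± 0.20 at the second (adjusted p = 0.0645).

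The disagreement between probes was tested within arrays, as the difference between each further probe and the probe standing for its gene, over all 6202 such pairs. This test was added after the probes of Dnmt3a, Tet2 and Tdg had been seen to differ. The second Dnmt3a probe gained 1.51 ± 0.40 on the first over the span (adjusted p = 0.0451), the dimmer Tet2 probe changed by -2.26 ± 0.39 against the brighter (adjusted p = 0.0146), and the dimmer Tdg probe by -1.58 ± 0.39 (adjusted p = 0.0366). The Uhrf1 probes differed by -0.07 ± 0.22 over the span (adjusted p = 0.847), and the third Dnmt3a probe by -0.0022 ± 0.26 (adjusted p = 0.996), while at E13.5 against E12.5 its difference was -0.87 ± 0.26 (adjusted p = 0.836). Of all pairs 20.7% were called over the span, 0 of 6202 between E12.5 and E13.5 and 8.85% between E13.5 and E14.5. The median size of a pair difference over the span was 0.53, and 32.1% of pairs moved in opposite directions. Within slide 3, from E14.5 to E15.5, the member pairs differed by -0.72 (Tet2) to 0.59 (the third Dnmt3a probe), none called, and 0.0161% of all pairs were called. The Dnmt3a call was lost with slide as a random block (adjusted p = 0.06), without the filter (0.0615) and under normexp (0.118), that of Tdg without the filter (0.0512), in a fit of only the arrays compared (0.0501) and under normexp (0.12), and that of Tet2 under normexp (0.11). Without any one array of E12.5, E13.5 or E15.5 the Dnmt3a and Tdg pair differences were not called over the span (adjusted p 0.0524 to 0.213), and that of Tet2 was not called without either E12.5 array or without E15.5 array 2 (0.0652 to 0.0901).

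**Figure D2:**
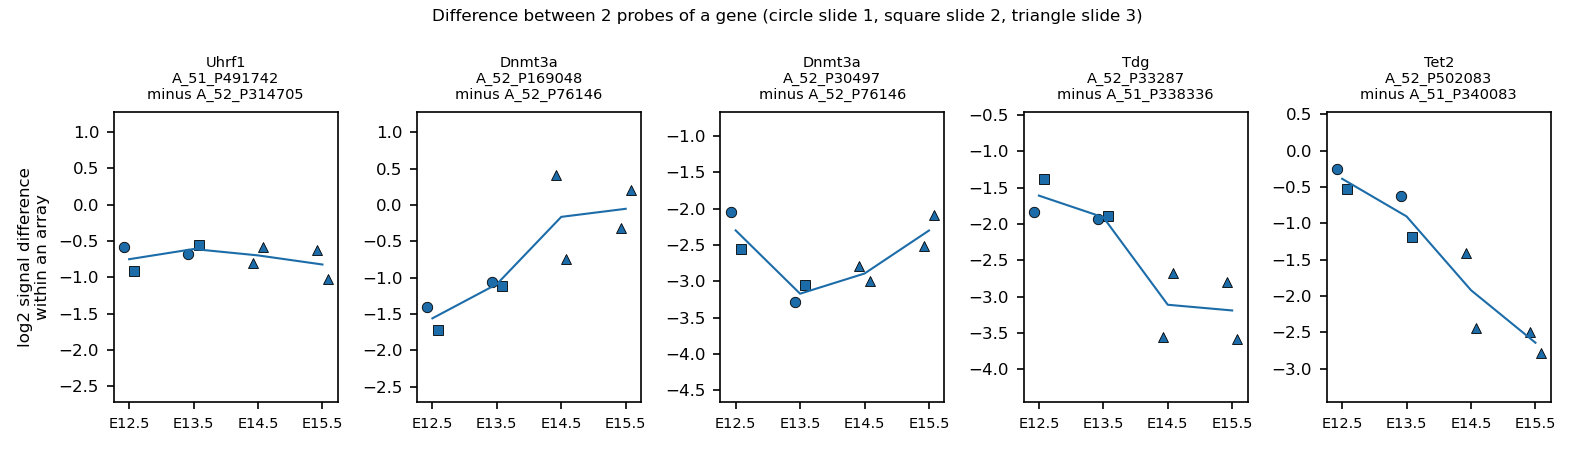
Difference in log2 signal between 2 probes of a gene within each array, by stage, with the line at the mean of 2 arrays and point shapes for slides 1 (circle), 2 (square) and 3 (triangle). The Uhrf1 difference stays between -1.02 and -0.55 on all arrays, while that of Tet2 goes from -0.25 and -0.52 at E12.5 to -2.50 and -2.79 at E15.5.

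Counted over the 7 genes, 1 was called higher and 0 lower at E13.5 against E12.5 (Dnmt3l), where 3.98% of all genes were called, 2.68% higher and 1.30% lower. At an unadjusted p under 0.05 limma gave 2 higher (Dnmt3l and Dnmt3a) and 1 lower (Dnmt1). The share of all genes at that unadjusted level is not given here. Counts at that level, here and below, therefore have no background beside them and cannot be told from it. At E14.5 against E13.5 the count called was again 1 higher and 0 lower, where 12.5% of all genes were called, 6.44% higher and 6.05% lower. At E15.5 against E14.5 limma called 0 of 7, also at an unadjusted p under 0.05, where 0.655% of all genes were called, 0.559% higher and 0.0955% lower. Over the span 1 was higher (Dnmt3l) and 1 lower (Dnmt1), or 2 of 7, beside 35.0% of all genes (17.6% higher, 17.4% lower), so the share of members lay near the background. In the test over all stages, 1 of 7 was called (Dnmt3l, adjusted p = 0.000315; Dnmt1 had adjusted p = 0.0626), where 31.1% of all genes were. The 7 genes had a median change of -0.15 at the first step, 0.36 at the second, -0.04 at the third and 0.30 over the span, and all genes tested had -0.06, -0.02, 0.01 and -0.07. Of the 12 probes, 2 were called at E13.5 against E12.5 (3.23% of all probes), 2 at E14.5 against E13.5 (12.6%), 0 at E15.5 against E14.5 (0.578%; also 0 at an unadjusted p under 0.05) and 5 over the span (34.4%), and over all stages 4 (30.2%). The 2 stages compared were fully separated for 5 of the 7 genes at E13.5 against E12.5 (Dnmt1, Dnmt3a, Dnmt3b, Dnmt3l and Uhrf1), as for 51.3% of all genes, for 2 at E14.5 against E13.5 (60.0% of genes and 60.0% of probes), for 1 at E15.5 against E14.5 (36.4%) and for 5 over the span (74.0% of genes, 73.8% of probes).

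**Figure D3:**
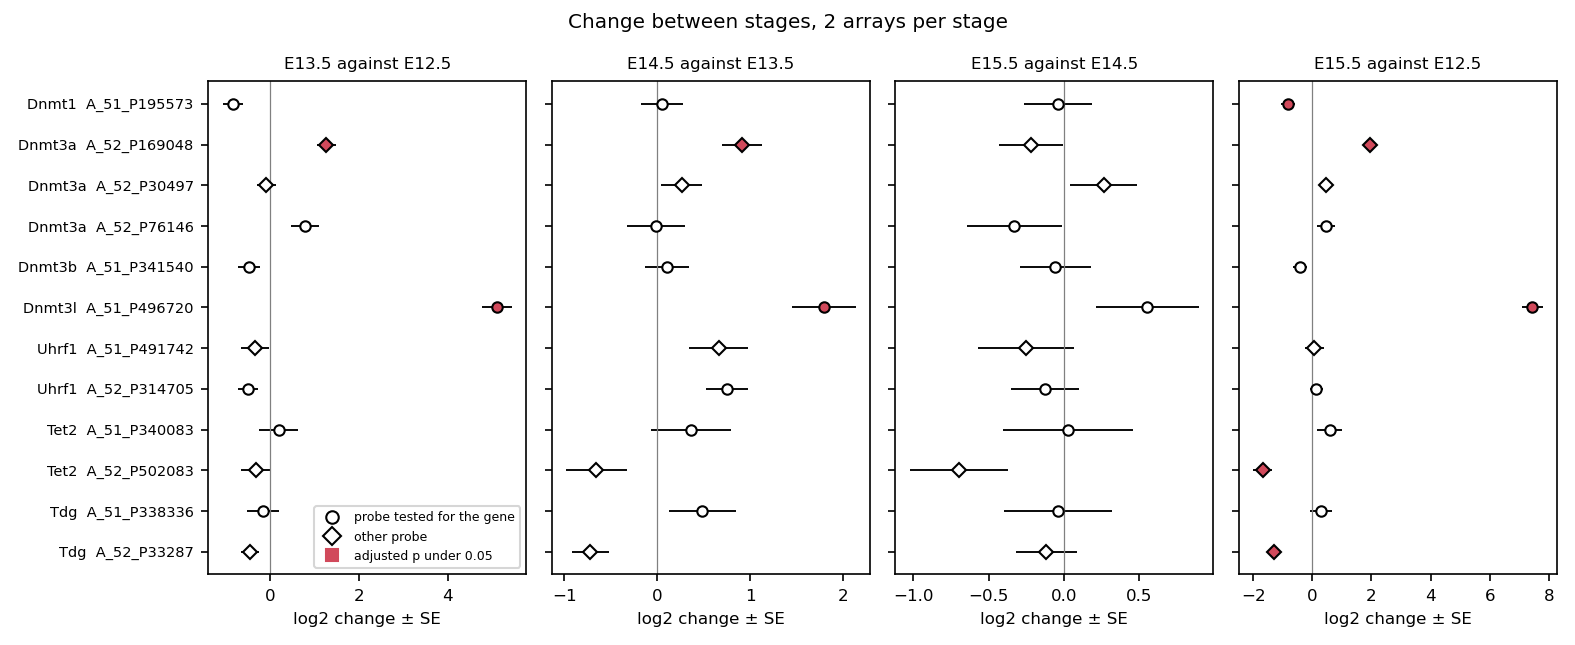
Change in log2 signal between stages for each of the 12 probes, with limma's standard error as bars, circles for the probe standing for a gene, diamonds for other probes and red for adjusted p under 0.05; x scales differ. Dnmt3l lies at 5.10 and 7.44 in the first and last panels, and no probe is red for E15.5 against E14.5.

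The authors' deposited table holds 1 ratio per probe and stage and rests on the same arrays. In the authors' deposited table Dnmt3l had differences of 4.98, 1.84 and 0.30 over the successive steps and 7.12 over the span, on a log2 scale whose median over all probes was -0.20, -0.18, -0.15 and -0.44. In the authors' deposited table Dnmt1 had -0.95 at the first step and -1.14 over the span, and the second Dnmt3a probe had 1.15 and 1.64. All values called here for the members had the same sign there.

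Because methylation of transposons in male germ cells is guided by piRNAs, small RNAs bound by PIWI proteins, genes of that pathway were set beside Dnmt3l. Of 18 listed genes 13 were tested, and 9 rose and 0 fell at E13.5 against E12.5, with a median change of 1.80 (1.98 on slide 1, 1.62 on slide 2) beside -0.06 for all genes, of which 2.68% were called higher. The largest were Henmt1, the methyltransferase of piRNA ends, at 3.86 ± 0.35 (adjusted p = 0.0041, well above background on 1 of 2 E12.5 arrays), Morc1, needed for transposon silencing in male germ cells, at 3.13 ± 0.21 (adjusted p = 0.00155), the PIWI protein gene Piwil1 at 2.64 ± 0.45 (adjusted p = 0.0304, also 1 of 2 arrays) and the Tudor domain gene Tdrd1 at 2.21 ± 0.33 (adjusted p = 0.019). None of these changes was as large as the 5.10 of Dnmt3l. The count of 9 was lower without either E12.5 or either E13.5 array, and so was the number of calls over all genes.

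At E14.5 against E13.5, 3 of the 13 rose and 0 fell, namely Piwil2, the PIWI protein of fetal male germ cells, at 1.54 ± 0.22, Tdrd1 at 1.48 ± 0.33 and Tex15, a partner of piRNA-directed silencing, at 1.23 ± 0.24, where 6.44% of all genes were called higher. This count was 0 without either E13.5 array or E14.5 array 1, and 1 without either E15.5 array. At E15.5 against E14.5 limma called 0 of 13, with 2 lower at an unadjusted p under 0.05 and a median of -0.06. Over the span 10 rose and 0 fell with a median of 2.88, beside 17.6% of all genes called higher, led by Henmt1 at 5.22 ± 0.35 and Piwil1 at 3.72 ± 0.45, and the count ran from 9 to 11 with 1 array left out. The median was positive under each of the other scalings and background corrections tried at E13.5 (1.47 to 1.88), at E14.5 (0.64 to 0.74) and over the span (2.71 to 3.09). The list was chosen with these results known, and 3 of its genes (Ddx4, Mael and Tdrd1) are also in the germ cell list below.

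**Figure D4:**
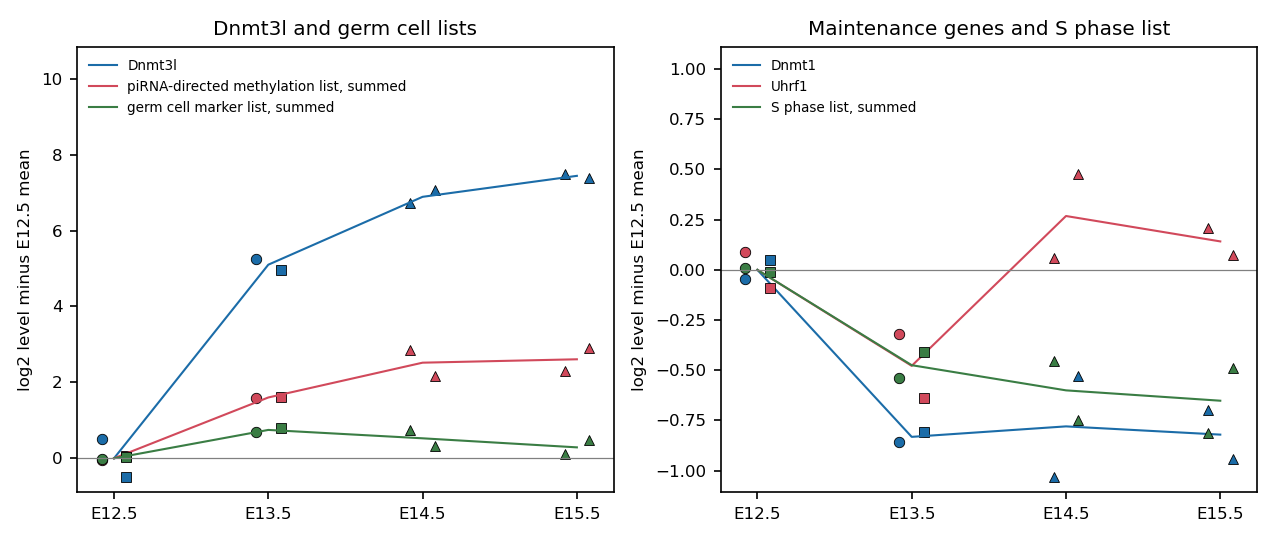
Left, Dnmt3l with the summed levels of the piRNA list and of the germ cell markers; right, Dnmt1 and Uhrf1 with the summed level of the S phase list, each as log2 level minus its own E12.5 mean, with a point per array (circle slide 1, square slide 2, triangle slide 3) and lines through stage means. Dnmt3l and the piRNA list rise at each day to E14.5, while the summed germ cell markers peak at E13.5; Dnmt1 and the S phase list stay below their E12.5 means and Uhrf1 does not.

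Markers of germ cells themselves moved less in sum than Dnmt3l, and singly in both directions. Their median change was 0.66 at E13.5 against E12.5, -0.65 at E14.5 against E13.5 and -0.33 at E15.5 against E14.5. Over the span the median was -1.24, with 9 of 14 negative, so the sum, which follows the brightest markers, does not show the typical marker. At E14.5 against E13.5, 1 rose and 6 fell, where 6.44% of all genes were called higher and 6.05% lower. The summed level of the 14 markers was 6.41 and 6.47 on the E12.5 arrays, 7.13 and 7.24 at E13.5, 7.17 and 6.76 at E14.5, and 6.54 and 6.91 at E15.5. The E13.5 arrays lay above the E12.5 arrays by about 0.7 log2 units, while Dnmt3l differed by 5.10. At E13.5 against E12.5, 6 of 14 rose (Nanos2, Tdrd1, Mael and Nanos3 by 3.12, 2.21, 2.16 and 2.10, among others) and 2 fell, Kit by 1.59 and Tfap2c by 1.19 on the log2 scale. Of all genes 2.68% were called higher and 1.30% lower there. Nanos2 directs the male fate of germ cells, and Kit and Tfap2c act in early germ cells. Over the span 3 rose and 7 fell, where 17.6% of all genes were called higher and 17.4% lower. Among those that fell was Dppa3, which shields methylated DNA from oxidation in the zygote, with a change of -4.40 ± 0.23. Nanos2 did not stay up: its stage means were -1.78, 1.33, -1.24 and -5.17 in order of stage. By limma it was lower over the span (adjusted p = 0.00178), with 1 of 2 E15.5 arrays well above background. Ddx4, a general germ cell marker named here after its values were seen, differed by 0.78 ± 0.34 at E13.5 (adjusted p = 0.325) and by 0.89 ± 0.34 over the span (adjusted p = 0.0881). The germ cell count at E13.5 ran from 1 to 8 of 14 with 1 array left out, falling without either E12.5 or either E13.5 array. The part of germ cell number in the rise of Dnmt3l was not tested.

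Other cell types also moved over these days. The summed level of 8 fetal Leydig cell markers went from 4.78 and 5.13 at E12.5 to between 6.78 and 7.12 at E13.5 and between 7.19 and 7.41 at E15.5, with 7 of 8 called higher over the span, beside 17.6% of all genes. Mesonephros markers went from 2.11 and 2.24 at E12.5 to 0.92 and 1.18 at E13.5 and 0.30 and 0.40 at E15.5, and endothelial markers from 4.35 and 4.36 to 3.67 and 3.69 and then 3.30 and 3.36. Sertoli cell markers stayed between 7.20 and 7.73 in sum, while 10 of 11 had negative differences over the span (median -0.40). Erythroid markers went from 8.18 and 8.94 at E12.5 to 7.59 and 7.69 at E15.5, and macrophage markers from 1.15 and 1.42 to 2.43 and 2.83. Interstitial and peritubular markers went from 5.43 and 5.46 to 6.46 and 6.59. These sums follow the brightest markers. Over the span 1 of 8 mesonephros markers was called higher and 4 lower, and 0 and 3 of 8 endothelial markers. The counts were 0 and 1 of 11 for Sertoli, 1 and 5 of 7 for erythroid and 3 and 0 of 6 for macrophage markers. They were 3 and 1 of 8 for interstitial and peritubular markers. Of all genes 17.6% were called higher and 17.4% lower. The part of these cell types in the changes of Dnmt1, Dnmt3a, Tet2 and Tdg, which many cell types express, was not tested.

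Dnmt1 is transcribed with the genes of DNA replication in many cells, so a list of S phase genes was set beside the maintenance genes. At E13.5 against E12.5 all 22 tested members had negative differences, with a median of -0.46 (-0.53 on slide 1, -0.40 on slide 2), but limma called 0 of them, with 8 lower at an unadjusted p under 0.05. The share of all genes at that unadjusted level is not given here. Over the span, where 17.4% of all genes were called lower and slide and stage cannot be told apart, 10 of 22 fell and 0 rose, with a median of -0.64, among them Ccne1, a cyclin of S phase entry, by 1.58 ± 0.21, the polymerase gene Pold1 by 1.27 ± 0.19, the replication helicase gene Mcm5 by 1.0 ± 0.17 and Cdc45, its cofactor, by 0.96 ± 0.24 on the log2 scale. The count of 10 was 3 without E12.5 array 1 or E15.5 array 2, 4 without E15.5 array 1, 5 without E12.5 array 2 and 6 without either E13.5 array. The list's summed level was 8.72 and 8.74 at E12.5, 8.19 and 8.32 at E13.5, 7.99 and 8.28 at E14.5, and 7.92 and 8.24 at E15.5. Under the other scalings and background corrections its median stayed negative at E13.5 (-0.73 to -0.37) and over the span (-0.67 to -0.42).

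Partners of the maintenance enzymes were called in both directions. Of 12 tested, limma called 0 at E13.5 against E12.5 (4 at an unadjusted p under 0.05, 3 of them lower). Over the span 1 rose and 4 fell, with a median of -0.59, and 5 of 12 is near the 35.0% of all genes called. The deacetylase gene Hdac2 rose by 2.05 ± 0.36, while Dppa3 had a change of -4.40 ± 0.23, and falls were found for the chromatin remodeller gene Hells by 1.54 ± 0.25, the corepressor gene Trim28 by 1.19 ± 0.36 and the sliding clamp gene Pcna, also in the S phase list, by 0.88 ± 0.17. Hells is required for methylation of repeats in the mouse. Dppa3 fell within slide 3 too, by 3.23 ± 0.23 from E14.5 to E15.5 (adjusted p = 0.0149), where limma called it alone in this list, a call lost without either E14.5 array or E15.5 array 2. The span count of 5 was 3 without E12.5 array 1 or without either E15.5 array.

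Around TET enzymes and TDG, limma called 0 of 12 tested partners in each day-to-day comparison, with 1, 2 and 1 at an unadjusted p under 0.05. Over the span Idh1, whose product is the cosubstrate of TET enzymes, rose by 1.53 ± 0.29. Among those that fell were Dcaf1, by 1.42 ± 0.42, and the glycosyltransferase gene Ogt, a partner of TET proteins, by 0.92 ± 0.23 on the log2 scale. A second Ogt probe differed by 0.43 (adjusted p = 0.338), with the opposite sign. D2hgdh, named after its values were seen, had a second probe called lower (-1.08, adjusted p = 0.0308) where the probe standing for it had 0.06. In all 1 rose and 3 fell, 4 of 12 beside 35.0% of all genes, and this count ran from 1 to 7 with 1 array left out.

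In the base excision and deaminase list, 1 of 21 tested genes was called at E13.5 against E12.5, 3 at E14.5 against E13.5 and 4 over the span. The shares of all genes called were 3.98%, 12.5% and 35.0%. Of 21 tested, Neil2, a glycosylase, was at least 4.74-fold higher at E13.5 (adjusted p = 0.00923), both E12.5 arrays being too dim to stand well above background, a call lost without either E13.5 array. At E14.5 the glycosylase gene Neil3 rose by 1.60 ± 0.22 and Mutyh, another glycosylase gene, had a change of -1.2 ± 0.25, while Neil2, measured on 1 of 2 E14.5 arrays, changed by -2.05 ± 0.29; without either E13.5 array or E14.5 array 1 this count of 3 ran as low as 0. Over the span Neil3 rose by 1.33 ± 0.22 and Neil2 was at least 2.94-fold higher, while Mutyh fell by 1.54 ± 0.25 and Gadd45g by 1.10 ± 0.21, and the list median was 0.04.

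Readers of methyl-CpG had no call at E13.5 (0 of 9 by limma, also at an unadjusted p under 0.05). Over the span Zbtb33, a zinc finger protein that binds methylated DNA, rose by 1.18 ± 0.27 and Mbd3 fell by 1.36 ± 0.36, a count of 2 of 9, beside 35.0% of all genes, that ran from 0 to 4 with 1 array left out. Mbd1, named after its values were seen, had a second probe called higher at E14.5 (0.76, adjusted p = 0.0459) and over the span (0.87, adjusted p = 0.0139), where the probe standing for it had -0.25 and -0.19. In the methyl donor cycle Mat1a, which makes S-adenosylmethionine and is known from liver, was at least 4.25-fold higher at E13.5 and at least 6.93-fold over the span, with neither E12.5 array well above background. Over the span Bhmt and Ahcyl1 rose by 2.28 ± 0.47 and 1.67 ± 0.24, while Ahcy, which clears the inhibitory product of methylation, fell by 1.41 ± 0.22 and Mthfd1 by 0.74 ± 0.21. The donor count of 5 of 15, again beside 35.0% of all genes, ran down to 3, without E15.5 array 1 or 2. Mtrr, also named after its values were seen, had a second probe called higher (3.03, adjusted p = 0.0482, well above background on 6 arrays) where the probe standing for it had -0.41. The list medians over the span were -0.06 for readers and -0.09 for the donor cycle, close to the -0.07 of all genes.

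A list of genes for histone marks, not all of them marks read by the de novo enzymes, had 9 tested members. Kdm1b, the H3K4 demethylase required for imprint methylation in mouse oocytes, rose by 1.79 ± 0.29 at E14.5 (adjusted p = 0.017) and by 3.11 ± 0.29 over the span (adjusted p = 0.00065). Eed, a subunit of the H3K27 methyltransferase complex, rose by 1.75 ± 0.37 and 1.94 ± 0.37. The E14.5 calls of Kdm1b and Eed were kept in 5 and 3 of 8 fits with 1 array left out, and the span calls in 8 and 7. Nsd1, which makes the H3K36 mark bound by DNMT3A, fell by 0.67 ± 0.21 over the span, a call kept in 2 of 8 such fits. At E13.5 limma called 0 of 9, with 2 lower at an unadjusted p under 0.05. In all 2 of 9 were called at E14.5 against E13.5 and 3 over the span, beside 12.5% and 35.0% of all genes.

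Genes with a course most like that of Dnmt3l were sought by the root mean square difference of the 8 centred log2 values. The nearest with an official symbol were Fabp9, Svs5 and Nxf2, at 0.59, 0.59 and 0.60 over 8 arrays. Fabp9, a fatty acid binding protein gene of testis, read -5.33 and -5.51 at E12.5 (well above background on 1 of these arrays) and -1.48 and -1.56 at E13.5, and rose by 3.90 and over the span by 6.02. Nxf2, an X-linked RNA export factor gene, read -5.04 and -5.33 at E12.5, 1.47 and 0.01 at E13.5, and 2.88 and 3.13 at E15.5, a rise of 8.19 over the span. Svs5, a seminal vesicle protein gene, was not well above background on either E12.5 array and was at least 24.7-fold higher at E13.5 and at least 49.6-fold at E15.5.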

How the data were processed

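Gene expression was measured on 8 one-colour arrays, 2 at each of 4 stages. The deposited scanner files hold spot intensity on a linear scale. Per the file headers, Agilent Feature Extraction 9.1.3.1 (E12.5, E13.5) and 9.5.3.1 (E14.5, E15.5) made the background-subtracted processed signal, while the submitters' processing notes name 9.5. The authors' deposited table is a linear ratio per probe and stage. Its column medians were 1.14, 1.0, 0.898 and 0.859 in order of stage, its direction correlated with the scanner values at r of 0.984 to 0.990 across probes, and its centring and scaling rule remain unknown.

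Spots marked as outliers were left out, log2 values of a probe's spots were averaged, and the 75th percentile of each array was subtracted. A probe was kept where both arrays of some stage had it well above background (28188 probes). Of 41174 probes, 22951 matched 1 symbol of GRCm38.p6 by RefSeq accession. The probe of highest mean stood for a gene, and other probes were fitted in a table of all probes. A mean per stage was fitted to all 8 arrays with limma 3.58.1 (R 4.3.3; 4 residual and 2.57 prior degrees of freedom), adjusted by Benjamini-Hochberg over all genes or all probes. The number of arrays limits the precision. The fit was also run on simulated arrays for E13.5 against E12.5. Their errors were independent and without a slide effect, so that run cannot speak of slides. Where neither array of a stage had a probe well above background, its fold is a lower bound ("at least N-fold"), with each dim array set to its own value or to the array's dimmest well-detected probe, whichever was higher.

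The members and lists were chosen with earlier results of these data known. Named list genes are called members, at most the 4 of largest change per side, list and comparison, with 1 item not reported here, and the nearest genes are the 3 closest to a member called over all stages. Same-numbered E12.5 and E13.5 arrays share a slide and their deviations correlated at 0.65. For E14.5 and E15.5 the value was -0.59 and for the other pairs of stages between -0.08 and 0.07, so numbers do not pair samples over all stages. The files hold no mean signal, so normexp used the median signal. Other alternatives were scaling, filter, slide or replicate block, probe rule, outlier spots and each array left out. Sequences came from RefSeq's promoter table, read with Python 3.11.15.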

Additional observations from a re-analysis of the deposited data

How the results depend on the processing

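The 2 arrays per stage and the step across slides limit these results. Against the counts reported (1 of 7 genes called over all stages, 1 at E13.5, 1 at E14.5, 0 at E15.5 against E14.5 and 2 over the span), normexp background correction gave 0 at E13.5, 0 at E14.5 and 1 over the span. Over all 21986 genes normexp called 2, 0 and 1150 in these comparisons, beside 876, 2746 and 7703 in the reported fit. Its losses are therefore not particular to the members. Normexp after replacing outlying local background values, chosen after seeing the data, gave 1, 2 and 2 members, the second gene at E14.5 being Uhrf1 (adjusted p = 0.0413). Without the filter the counts were 0 at E14.5 and 1 over the span, with quantile scaling 1 over the span, and over all stages 2 genes were called with probes well above background on all 8 arrays or with the mean over a gene's probes. With 1 array left out, counts ran from 1 to 2 over all stages, 1 to 1 at E13.5, 0 to 1 at E14.5, 0 to 0 at E15.5 against E14.5 and 1 to 2 over the span. The cause was not tested.

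The replicate block by array number gave 1, 1, 1, 0 and 2 members called, as reported, and crossing the E15.5 numbers gave 0 at E15.5 against E14.5. Under the block the second Dnmt3a probe lost its calls at E13.5 (adjusted p = 0.0542) and E14.5 (0.061), and the pair differences of Dnmt3a (0.0683) and Tdg (0.0638) lost theirs. Dnmt3l at E13.5 lost its call under normexp alone (4.17, adjusted p = 0.0612) among 20 tested alternatives and kept it over the span in all 20. The fall of Dnmt1 was called in 11 of 20, that of the Tdg probe in 17 of 18 (normexp 0.0866) and that of the Tet2 probe in 14 of 17 (normexp 0.328). With the mean of its probes Dnmt3a was called over the span (0.96, adjusted p = 0.00964). Of 68 single values 12 were called and 0 of these changed sign; 30 of the others did in at least 1 alternative. The median change of all genes was 0.29 at E13.5 and -0.43 at E14.5 under normexp, beside -0.06 and -0.02, and -0.13 at E15.5 against E14.5 with median scaling.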
